A study of Homo sapiens with 54 samples.

Results

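The regions described here are places where the progesterone receptor (PR) was called on chromatin of T47D cells before hormone and where no PR region was called after it. T47D is a human luminal breast cancer line that makes PR. Cells received ethanol, the vehicle, or R5020, a synthetic progestin, for 1 h, with no other agent and no genetic change named in the labels. The series holds 54 libraries in 18 groups of 3, of which 48 are chromatin immunoprecipitations (ChIP) with 8 antibodies and 6 are inputs. The rows were chosen by their presence in the PR lists themselves: a region, or row, belonged to the set when it stood in the vehicle PR list on chromosomes 1 to 22 or X and shared no base with any row of the R5020 PR list. Of 6662 vehicle rows, 559 met this rule (8.39%, Wilson 95% interval 7.75% to 9.08%), and they are called lost below. The other 6103 shared at least 1 base with an R5020 row and are called retained. The word lost describes only the absence of a shared base between the lists: the R5020 PR list held 173115 rows, and each list stands for 3 libraries with no value per library. With an R5020 list of only as many top rows as the vehicle list, 79.1% of vehicle rows would be lost, and with R5020 rows within 1 kb counted as a match, 5.09%. No spread between replicates could therefore be computed, and sequencing depth is unknown. All intervals below are 95% intervals that cover the counting of rows only, and neighbouring rows are not independent.

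PR is a nuclear receptor that progestins activate. Without ligand much of it is held with chaperones, while a part is found on chromatin, and hormone drives it to many enhancers, where it binds an inverted repeat of a short hexamer. H3K27Ac, acetylated lysine 27 of histone H3, marks active promoters and enhancers. RNA polymerase III makes tRNAs, 5S ribosomal RNA and other short RNAs. POLR3A and POLR3C are subunits of it, POLR3G and POLR3GL are alternative forms of another subunit, Brf1 is part of the factor TFIIIB that recruits the enzyme, and Maf1 is its repressor. The luminal identity of the line was visible in acetylation: 12 of 12 luminal and steroid receptor genes had a vehicle H3K27Ac row within 1 kb of a gene end, against 3 of 8 basal or mesenchymal genes. Among genes of other cell types, 2 of 3 leukocyte genes had such a row, with a median highest fold of 3.66. Of 2 endothelial genes 1 had such a row, CDH5, with a highest fold of 4.53. The median for the luminal genes was 17.2, while PTPRC and PECAM1 had no such row in vehicle.

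The lost rows lay in different kinds of sequence, which the following examples show, all read 5′ to 3′ on the gene's strand from RefSeq tables of GRCh38.p14. The first 3 are promoters of the cell cycle inhibitor CDKN2C (chr1:50968456-50968755, plus strand), the insulin-like growth factor binding protein IGFBP4 (chr17:40443200-40443499, plus strand) and the homeobox gene PKNOX1 (chr21:42974312-42974611, plus strand). They stand for the GC-rich promoters among the lost rows, and capitals mark each GC box, GGGCGG on either strand. A printed window overlaps its lost row but can reach beyond it, so marked letters may lie outside the row.
CDKN2C promoter: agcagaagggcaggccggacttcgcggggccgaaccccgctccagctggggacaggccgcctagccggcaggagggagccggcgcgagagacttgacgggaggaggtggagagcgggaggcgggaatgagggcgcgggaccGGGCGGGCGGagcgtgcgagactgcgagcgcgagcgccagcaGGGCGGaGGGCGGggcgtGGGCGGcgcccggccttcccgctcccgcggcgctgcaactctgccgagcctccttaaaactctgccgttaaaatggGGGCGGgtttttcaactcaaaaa
IGFBP4 promoter: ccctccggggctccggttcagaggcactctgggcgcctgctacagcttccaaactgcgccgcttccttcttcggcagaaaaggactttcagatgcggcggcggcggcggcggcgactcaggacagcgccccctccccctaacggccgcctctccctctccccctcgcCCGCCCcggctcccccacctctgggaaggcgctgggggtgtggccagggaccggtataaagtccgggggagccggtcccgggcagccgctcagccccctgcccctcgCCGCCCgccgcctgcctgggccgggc
PKNOX1 promoter: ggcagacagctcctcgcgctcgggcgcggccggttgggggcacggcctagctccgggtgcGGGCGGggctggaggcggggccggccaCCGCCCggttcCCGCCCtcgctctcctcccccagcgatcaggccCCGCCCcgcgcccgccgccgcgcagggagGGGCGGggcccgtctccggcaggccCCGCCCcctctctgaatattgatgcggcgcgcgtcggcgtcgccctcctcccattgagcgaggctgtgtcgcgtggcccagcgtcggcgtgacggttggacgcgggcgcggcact
The promoter of the RNA host gene SNHG17 (chr20:38435279-38435578, minus strand) is shown because it was among 4 lost promoters with the receptor's hexamer AGAACA, which is in capitals. The hexamer lies in the window but outside the lost row itself (chr20:38435304-38435511).
SNHG17 promoter: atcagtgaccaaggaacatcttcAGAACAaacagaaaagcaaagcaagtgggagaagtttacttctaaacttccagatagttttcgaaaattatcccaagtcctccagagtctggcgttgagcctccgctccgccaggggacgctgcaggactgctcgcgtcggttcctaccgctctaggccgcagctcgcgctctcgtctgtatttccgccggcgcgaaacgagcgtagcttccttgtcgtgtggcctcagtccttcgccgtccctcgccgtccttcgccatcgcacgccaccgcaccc
The promoter of POLR3A (chr10:78029466-78029765, minus strand), the largest subunit of RNA polymerase III, held neither that hexamer nor a GC box.
POLR3A promoter: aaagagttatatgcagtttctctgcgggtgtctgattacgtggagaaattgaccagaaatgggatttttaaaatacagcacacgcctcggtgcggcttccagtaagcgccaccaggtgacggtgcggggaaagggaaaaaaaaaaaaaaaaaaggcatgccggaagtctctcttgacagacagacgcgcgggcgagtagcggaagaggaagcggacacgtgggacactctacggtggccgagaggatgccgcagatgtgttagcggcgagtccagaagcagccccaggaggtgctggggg
The hairpin of MIR6724-4 (chr21:8432530-8432621, plus strand), printed as RNA, stands for the ribosomal DNA repeats. It overlapped a lost row at chr21:8432587-8432835 with a fold of 3.09, and 2 gene copies in the table have this same sequence.
MIR6724-4 hairpin: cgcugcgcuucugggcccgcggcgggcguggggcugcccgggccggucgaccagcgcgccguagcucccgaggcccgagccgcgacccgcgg

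Lost rows were on the whole weak in vehicle. Fold enrichment, the authors' ratio of ChIP signal to the caller's background, had a median of 3.44 in lost rows (quartiles 2.90 and 4.04, highest 12.9). In retained rows the median was 4.08 (quartiles 3.43 and 5.32, highest 57.4). The −log10 of the q-value, the caller's measure of confidence, had medians of 4.74 and 7.08, and widths had medians of 222 and 304 bp. The groups overlapped over most of their range. As these values come from the same vehicle list that the rule used, they are a description only. With vehicle rows ranked by −log10 q in 10 equal groups, the share lost was 16.9% in the lowest and 1.65% in the highest. It was lower in each following group but the eighth, where it was 4.95% after 4.65%. Rows of low fold were lost most often: of 211 vehicle rows with a fold under 2.5, 72 were lost (34.1%), against 487 of 6451 at a higher fold (7.55%). Of those 72 rows, 37 (51.4%) lay in repeat arrays or over 100 kb from any gene, and 17 (23.6%) shared a base with a vehicle POLR3A row. Among the 487 lost rows of higher fold these shares were 12.9% and 4.72%. Whether retained rows of low fold share these traits was not tested.

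**Figure D1:**
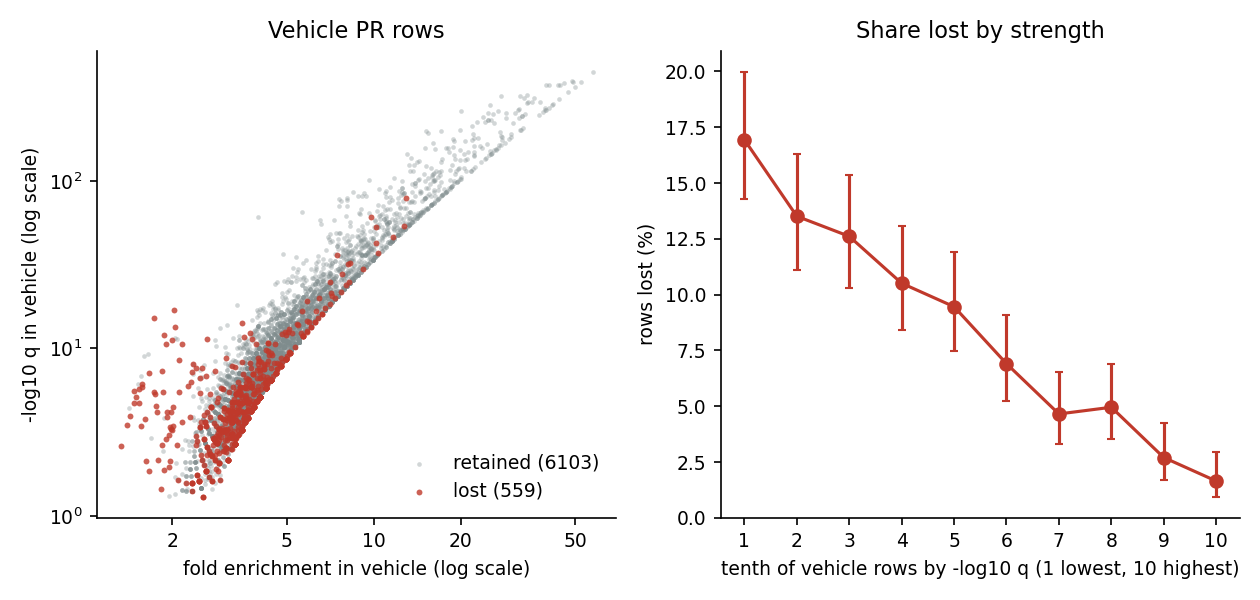
Left, fold enrichment against −log10 q of every vehicle PR row, both on log axes, with 559 lost rows in red and 6103 retained rows in grey. Right, share of rows lost in each of 10 groups of vehicle rows by −log10 q with Wilson 95% intervals, from 16.9% in the lowest to 1.65% in the highest group.

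Many lost rows had an R5020 PR row close by. The distance to the nearest R5020 row ranged from 4 bp to 2514021 bp with a median of 1943 bp. It was within 100 bp for 51 rows, within 1 kb for 220 (39.4%) and within 10 kb for 447 (80.0%), while 30 rows lay over 100 kb away. Just inside the rule were rows at CTDNEP1 and ELP5 (chr17:7251782-7251942, 4 bp from an R5020 row), at TRIM55 (5 bp), at GLT8D1 (chr3:52705765-52705925, 6 bp), near HIP1 (7 bp) and near ARHGAP12 (7 bp). Their folds were between 2.47 and 3.06. Just outside it were retained rows at SNX10 (1 shared bp, fold 3.52), at ADNP-AS1 (2 bp, fold 3.08), near SLC2A4RG (2 bp, fold 2.59), near HIF1AN (4 bp, fold 3.01) and at PRR5 (10 bp, fold 3.67). The fold ranges on the sides of the rule overlapped, and 3 of the 5 retained rows lay above all 5 lost rows. The lost rows within 1 kb had 211 distinct nearest R5020 rows, of which 154 (73.0%) were absent from the vehicle list, against 96.6% of all R5020 PR rows. Those 211 rows had a median −log10 q of 13.0, at the median percentile 42.0 of the R5020 list, so they were not drawn from its strongest rows. Other vehicle PR rows were about as close to lost rows (19.3% within 1 kb) as to retained ones (16.1%), a difference of 3.18 points with an interval from −0.02 to 6.77.

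Lost rows carried H3K27Ac less often than retained rows. In vehicle, 344 of 559 lost rows (61.5%) shared a base with an acetylated row, against 5626 of 6103 retained rows (92.2%) and 89.6% of all vehicle PR rows. The difference was −30.6 points (interval −34.8 to −26.6), and among rows of like confidence (−log10 q between 3.25 and 6.68) it was −29.8 points (−35.7 to −24.3). In R5020, 308 lost rows (55.1%) were acetylated, against 89.4% of retained rows and 86.5% of all, a difference of −34.3 points (−38.5 to −30.1). The acetylated rows under lost PR rows were still strong ones: their median fold of 10.4 compares with 13.3 under retained rows and 3.66 over all vehicle H3K27Ac rows. Of the 344, 185 (53.8%) lay in an acetylated row that also held an R5020 PR row elsewhere along its length, while 39.1% of all vehicle H3K27Ac rows held one. The acetylated rows under lost PR rows were wider, with a median of 2482 bp against 475 bp over all, and the part of width in these shares was not tested.

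Acetylation mostly stayed where PR was lost. Of the 344 lost rows acetylated in vehicle, 293 (85.2%) were acetylated in R5020 too, against 5374 of 5626 retained rows (95.5%), 94.9% of both together and 67.2% of all vehicle H3K27Ac rows. The difference between lost and retained rows was −10.3 points (−14.5 to −6.93), and −4.74 points (−9.94 to −1.20) among rows of like confidence. By both treatments, 293 lost rows (52.4%) were acetylated in each, 51 (9.12%) in vehicle only, 15 (2.68%) in R5020 only and 200 (35.8%) in neither. For retained rows these shares were 88.1%, 4.13%, 1.33% and 6.49%. The 51 rows acetylated in vehicle only had a median PR fold of 4.01, and 6 of them lay within 1 kb of a protein-coding gene end. The 293 acetylated in each had a median PR fold of 3.46, and 121 of them (41.3%) lay at such an end. Retained rows had the same order. Their median PR fold was 4.40 in vehicle only and 4.04 in each, with 5.95% and 41.6% at such an end. The distance to an R5020 PR row differed among the lost rows. Outside repeat arrays and within 100 kb of a gene, 176 of 323 acetylated lost rows (54.5%) had an R5020 PR row within 1 kb, with a median distance of 754 bp. Of the 136 without vehicle acetylation, 28 (20.6%) had one, with a median of 4566 bp.

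**Figure D2:**
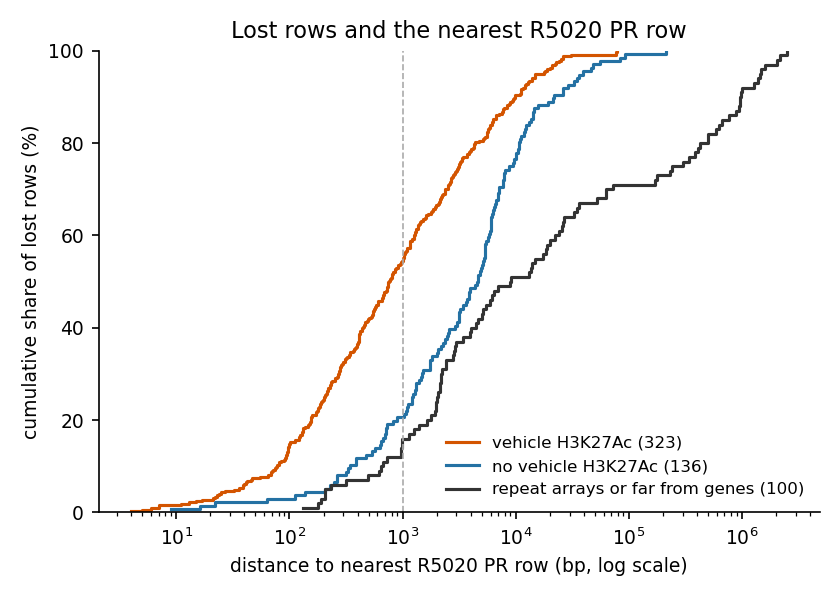
Cumulative share of lost rows (%) against the distance to the nearest R5020 PR row (bp, log axis), for 323 rows with vehicle H3K27Ac, 136 without it, and 100 rows in repeat arrays or over 100 kb from a gene; the dashed line marks 1 kb. At 1 kb the curves stand at 54.5%, 20.6% and 16.0%.

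Over all vehicle PR rows, the antibodies against the polymerase III machinery split into 2 patterns. POLR3G and Maf1 were scarcer at lost than at retained rows. A vehicle POLR3G row was present at 218 lost rows (39.0%) and 66.7% of retained rows, against 64.4% of all vehicle PR rows, a difference of −27.7 points (−31.8 to −23.4), or −17.3 points with POLR3G rows of −log10 q of at least 5. An R5020 POLR3G row was present at 29.7% and 58.3% (55.9% of all). The vehicle POLR3G difference was smaller within rows acetylated in vehicle. There it stood at 60.5% of lost and 71.3% of retained rows, a difference of −10.8 points (−16.2 to −5.65). Vehicle Maf1 was present at 79 lost rows (14.1%) and 25.4% of retained rows (24.4% of all), a difference of −11.2 points (−14.1 to −7.92). Among rows of like confidence this was −4.59 points with an interval from −8.68 to 0.33. After R5020, Maf1 stood at 149 lost rows (26.7%) and 72.3% of retained rows (68.5% of all), a difference of −45.6 points (−49.3 to −41.7). Maf1 was listed in R5020 only at 87 of 559 lost rows and at 2929 of 6103 retained rows. The whole Maf1 list held 3048 rows in vehicle and 22638 in R5020. Within rows acetylated in R5020, Maf1 stood at 42.2% of lost and 77.0% of retained rows, a difference of −34.8 points (−40.3 to −29.1). Vehicle rows of these antibodies at lost PR rows were also found again less often in R5020. Of the 218 with POLR3G, 151 (69.3%) had R5020 POLR3G, against 79.4% at retained rows and 39.2% of all vehicle POLR3G rows, a difference of −10.1 points (−16.6 to −4.21). Of the 79 with Maf1, 62 (78.5%) had R5020 Maf1, against 95.8% at retained rows and 91.5% of all vehicle Maf1 rows, a difference of −17.3 points (−27.6 to −9.61).

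POLR3A went the other way, and over all rows so did Brf1. Vehicle POLR3A was present at 40 lost rows (7.16%) and 37 retained rows (0.606%), against 1.16% of all vehicle PR rows, a difference of 6.55 points (4.68 to 9.00). R5020 POLR3A was present at 35 lost rows (6.26%) and 34 retained rows (0.557%), against 1.04% of all. Both treatments had POLR3A at 21 of the 40 lost and at 30 of the 37 retained rows, beside 83.3% of all vehicle POLR3A rows found again in R5020. R5020 Brf1 was present at 44 lost rows (7.87%) and 3.49% of retained rows (3.86% of all), and vehicle Brf1 at 12 lost rows (2.15%) and 0.655% (0.781% of all). Vehicle POLR3C was present at 3.76% and 1.77% (1.94% of all), and R5020 POLR3C at 3.40% and 1.93% (2.06% of all). POLR3GL was at 1 lost and 11 retained rows in vehicle (0.18% of all), and at 0 lost and 10 retained rows in R5020 (0.15% of all). For POLR3C, POLR3G and POLR3GL, 4 libraries titled R5020 carry an ethanol tag (POLR3C replicates 1 and 2, and replicate 1 of each of the others), so their R5020 values rest on the titles. With arrays and rows over 100 kb from a gene left out, the POLR3A shares were 1.96% of 459 lost and 0.464% of 6038 retained rows, a difference of 1.50 points (0.55 to 3.23). Only the arrays named below and such distant rows were left out, so other repeated sequence may remain. The 9 lost rows behind the 1.96% had PR folds from 1.33 (chr17:26885296-26885578, 96113 bp from a gene) to 5.14 (chrX:63189401-63189578). Whether the 1.50 points rest on repeats was not tested. With the same rows left out, R5020 Brf1 was at 2.40% and 3.30%, an interval from −2.06 to 0.99, and no lost row had a vehicle Brf1 row. POLR3C was there at 2.18% and 1.79% in vehicle (interval −0.67 to 2.20) and at 1.74% and 1.95% in R5020 (−1.15 to 1.48), so its intervals no longer left out 0 and in R5020 its direction turned. At 147 lost rows (26.3%) no other antibody had a row in either treatment, against 4.00% of retained rows and 5.87% of all, a difference of 22.3 points (18.8 to 26.1).

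**Figure D3:**
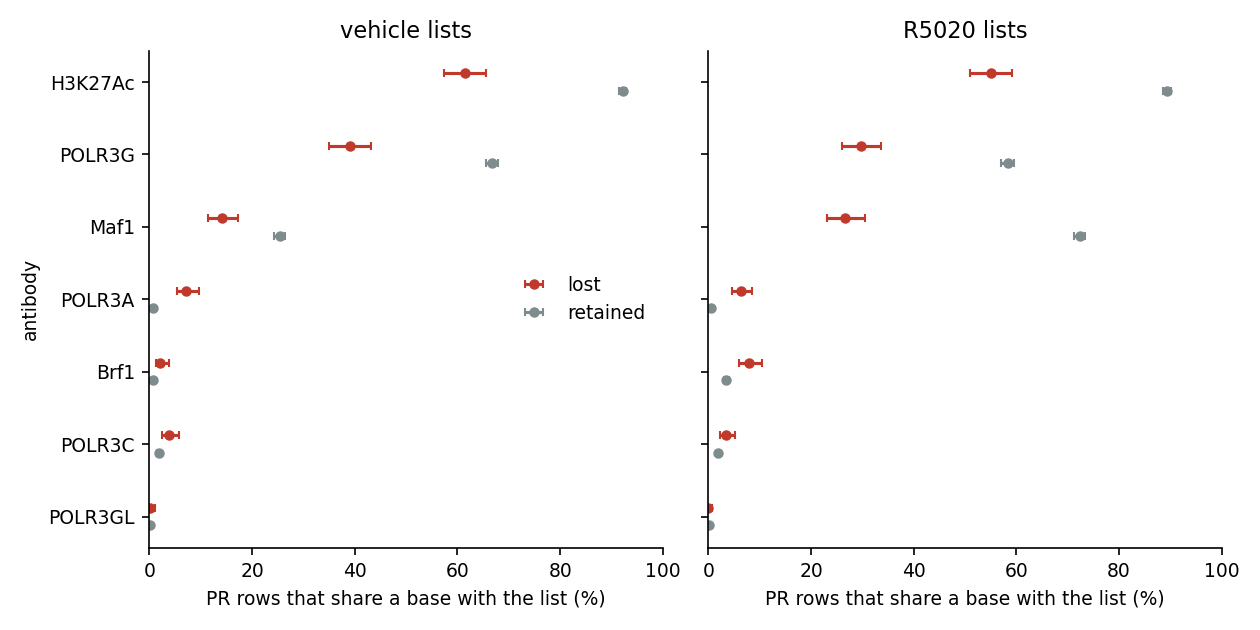
Share (%) of lost (red) and retained (grey) vehicle PR rows that share a base with the vehicle list (left) or R5020 list (right) of each of the other 7 antibodies, with Wilson 95% intervals. Lost rows were lower for H3K27Ac, POLR3G and Maf1 and higher for POLR3A, with the widest gap at R5020 Maf1 (26.7% against 72.3%).

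A part of the set sat in repeated gene arrays or far from genes. Within 50 kb of the 45S ribosomal RNA genes on chromosome 21, which RNA polymerase I transcribes, 41 of 57 vehicle PR rows were lost (71.9%). Within 5 kb of the 5S genes on chromosome 1, which RNA polymerase III transcribes, 8 of 8 were lost. Near DUX4 and its relatives, genes of subtelomeric repeats, 6 of 8 were lost. Over 100 kb from any gene, 45 of 92 were lost (48.9%), and elsewhere 459 of 6497 (7.06%). These places together held 100 lost rows (17.9%) and 65 retained rows (1.07%), a difference of 16.8 points (13.9 to 20.2). Near-identical copies of the 45S, 5S and DUX4 genes share sequence, so a row there may not be assignable to 1 copy, and how reads with several matches were treated is not given in the sources used here.

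At the 5S genes the lost PR rows were among the weakest of the set, with folds from 1.79 to 2.54 (median 2.00). All 8 shared a base with R5020 POLR3A and with POLR3G in both treatments, 7 with vehicle POLR3A and 7 with POLR3C in each treatment, and 6 with Brf1 in each treatment. Over the whole 5S array the PR lists held 8 rows in vehicle and 1 in R5020. The POLR3A lists held 22 rows (median fold 8.10) and 32 rows (10.3) there, and the Brf1 lists 18 (7.13) and 27 (15.2). PR thus stood alone among these antibodies in having fewer listed rows at 5S after R5020, apart from POLR3GL, which had none. The 2 lost rows of highest confidence there lay near RNA5S6 (chr1:228622374-228622557, fold 2.04, −log10 q 13.4) and RNA5S1 (chr1:228609586-228609913, fold 2.17, −log10 q 10.7).

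At the 45S genes the 41 lost rows had folds from 1.95 to 4.41 (median 3.18), and 13 of them had an R5020 PR row within 1 kb. The PR lists held 57 rows there in vehicle and 34 in R5020, with median folds of 3.22 and 2.97. Vehicle POLR3A was present at 14 of the 41 and R5020 Brf1 at 19. Over the whole 45S array these 2 lists held 33 and 87 rows. The POLR3C and POLR3G lists held 0 rows in this array in either treatment, so they could not overlap a lost row there. Most lost rows of a single neighbourhood lay here: 14 lost and 1 retained rows fell in or within 10 kb of the pseudogene CDC27P10. At RNA45SN1 11 lost and 4 retained rows did so. These 2 neighbourhoods overlap, and rows in the shared part are counted in both. The copy RNA45SN2 had 5 lost and 7 retained rows. The row of highest confidence with POLR3A in this array lay over CDC27P10 (chr21:8418261-8418559, fold 3.95, −log10 q 8.78), 498 bp from an R5020 row.

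The 6 lost rows at DUX4 repeats had folds from 1.62 to 2.80, and 6 of 6 had R5020 POLR3A and Maf1. Unlike at the ribosomal genes, the PR lists there grew from 8 rows in vehicle to 21 in R5020. Of the 45 lost rows over 100 kb from a gene, 7 had vehicle POLR3A and 4 vehicle H3K27Ac, and the median distance to an R5020 PR row was 385931 bp. The 5 lost rows farthest from an R5020 row included 4 on chromosome 1, between chr1:123852453-123852733 and chr1:124772884-124773123, with folds between 1.67 and 2.43. The nearest gene, EMBP1, lay 2280564 bp or more away. That interval of the assembly is filled with modelled centromere sequence. The fifth lay at chr3:91867165-91867342, with a fold of 3.48. The rows with POLR3A and the highest confidence were of this kind as well, at chr7:58797761-58797943 (fold 2.02, −log10 q 17.0), chr17:26603801-26603990 (fold 1.74, −log10 q 15.2) and chr10:41191713-41191964 (fold 3.50, −log10 q 14.2).

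Chromosome 21 held the most lost rows, 59 of its 183 vehicle rows (32.2%). Without the repeat arrays and rows far from genes, 18 of 126 were lost (14.3%). By share of all its rows, chromosome 18 came next with 11 of 67 (16.4%; 12.7% without those places), then chromosome 13 with 17 of 111 (15.3%; 8.82%). Without those places chromosomes 22 (11.2%), 19 (10.7%) and 5 (9.51%) stood above chromosome 13. The lowest share was on chromosome 14, 12 of 262 (4.58%).

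**Figure D4:**
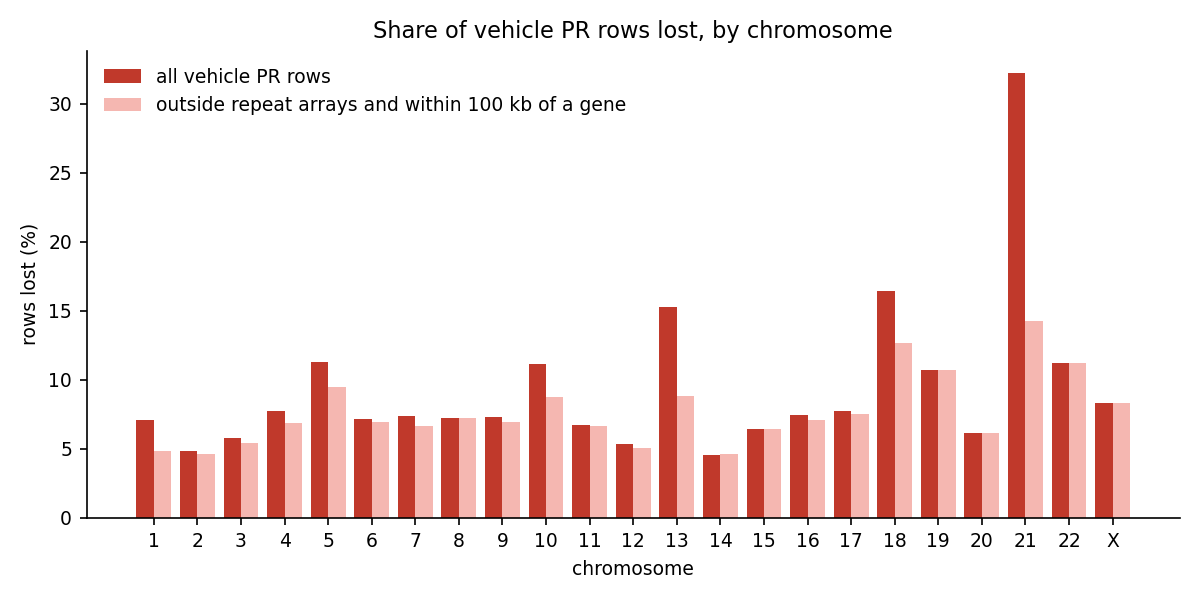
Share (%) of vehicle PR rows lost on each chromosome, for all rows (red) and for rows outside repeat arrays and within 100 kb of a gene (pink). Chromosome 21 stands at 32.2% with all rows and at 14.3% without those places.

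Lost rows lay at genes less often than retained rows. A protein-coding gene began or ended within 1 kb of 131 lost rows (23.4%) and of 37.4% of retained rows, against 36.3% of all vehicle PR rows, a difference of −14.0 points (−17.5 to −10.1). It was −23.0 points without the lost rows that had an R5020 PR row within 1 kb. Inside such a gene but farther from its ends were 23.6% and 30.6%, and outside protein-coding genes 53.0% and 32.0%. Without arrays and rows over 100 kb from a gene, the difference inside genes was −2.18 points with an interval from −6.30 to 2.28, and that outside genes was 11.7 points in place of 21.0. The difference at gene ends was smaller among acetylated rows: 36.9% of lost and 40.0% of retained rows with vehicle H3K27Ac lay at a gene end, −3.07 points with an interval from −8.17 to 2.30. No lost row lay within 1 kb of any of 429 tRNA genes, which by the rule of 3 counts allows a share of up to 0.537%, while 15 retained rows (0.246%) did. The difference of −0.25 points had an interval from −0.41 to 0.44.

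At promoters, lost and retained rows shared base composition. A window from 250 bases before to 50 after a gene start was overlapped by 86 lost rows, each matched to its closest window. The lost windows had a median GC content of 70.0%, the 1808 retained windows 69.7% and all 34789 windows 58.7%. The GC box GGGCGG stood in 73 lost windows (84.9%), 81.2% of retained and 44.9% of all windows, as in the printed CDKN2C and PKNOX1 promoters with 6 matches each. Lost and retained windows differed in it by 3.69 points with an interval from −5.52 to 10.0. The hexamer AGAACA stood in 4 lost windows (4.65%), 7.08% of retained and 14.8% of all windows, a difference of −2.43 points (−5.53 to 4.37). The receptor's full palindromic response element stood in 0 lost and 5 retained windows, and in 0.391% of all. Of 13 motifs searched on both strands, none differed between lost and retained windows by an interval that left out 0. The largest difference was the CTCF core CCANNAGGG, at 10.5% and 5.97% (4.49 points, −0.51 to 12.8). The other 9 were the estrogen response element, the forkhead motif (TGTTTAC), the AP-1 motif (TGANTCA), the motif of GATA factors (AGATAA), the ETS motif (CCGGAAG), the YY1 motif (AAGATGGC), the NRF1 motif (GCGCANGCG), the CCAAT box (GCCAAT) and the B box of tRNA genes (GGTTCGA). Matches of different motifs may overlap, and the palindrome can hold the hexamer. A match or its absence says only which letters stand in a window. Sequence at the lost rows outside these windows was not analysed here.

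The strongest lost rows lay in acetylated chromatin, several of them at genes with retained PR rows. The highest confidence was at CACNA1H, which encodes a T-type calcium channel (chr16:1190732-1192024, fold 12.9, −log10 q 78.7). It was also the widest lost row, 1293 bp, and its nearest R5020 row lay 828 bp away with a fold of 6.35. H3K27Ac covered it with folds of 14.5 in vehicle and 15.0 in R5020. The row at ZMIZ1, a transcriptional coactivator of the PIAS-like family (chr10:79158507-79158824, fold 9.76, −log10 q 61.3), had an R5020 row with a fold of 34.1 at 390 bp. ZMIZ1 also had 8 retained rows and 69 R5020 rows within 10 kb. The row near MED13L, a Mediator kinase module subunit (chr12:116283741-116284102, fold 12.7), lay 155 bp from an R5020 row.

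PGR, the gene of PR itself, held the fourth strongest lost row (chr11:101034054-101034450, fold 10.1, −log10 q 53.3). The nearest R5020 row was 5175 bp away with a fold of 5.32. The row carried POLR3G and H3K27Ac in both treatments, with H3K27Ac folds of 3.92 and 4.48, and Maf1 in vehicle only. The other 4 vehicle PR rows within 10 kb of PGR were retained, and they were weaker in vehicle, with folds from 2.47 to 4.57. They lay together at the other end of the gene, from chr11:101127281-101127930 to chr11:101129721-101129975. All 4 had an R5020 match of the same fold (42.9) and −log10 q (371), and the same H3K27Ac folds (29.3 and 31.8). They are thus not 4 separate sites of retained PR. After R5020, PGR had 29 PR rows with folds of up to 42.9. So the strongest vehicle row of this gene was the row without an R5020 match, while the weaker rows, grouped at the gene's other end, had one.

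Other rows of highest confidence lay at BALR6 (fold 11.7, 177 bp from an R5020 row), PNPLA7 (fold 10.2, 20349 bp), SNX24 (fold 10.3, 2122 bp), near LOC124902737 (fold 7.48, 2780 bp) and near LINC01488 (fold 8.29, 174 bp). With CACNA1H, ZMIZ1, MED13L and PGR these are 9 rows, and all 9 had H3K27Ac in both treatments, as did 52.4% of lost and 88.1% of retained rows. None of the 9 had POLR3A, Brf1 or POLR3C, but these are rare at all vehicle PR rows. In vehicle their shares were 1.16%, 0.781% and 1.94%, and in R5020 1.04%, 3.86% and 2.06%. So 9 rows are too few to show a difference. At 4 of the 9 the nearest R5020 row was over 2 kb away: PGR, PNPLA7, SNX24 and LOC124902737.

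Without vehicle acetylation the strongest lost rows lay at RBBP8-AS1 (chr18:22871775-22872020, fold 8.20), at the neural adhesion gene DSCAM (chr21:40340436-40340672, fold 7.71), near BALR6 (chr3:17943039-17943444, fold 7.09), near SRSF10P1 (fold 7.31) and at SEC14L6 (fold 6.77). None of these 5 shared a base with any other list in either treatment. Their distances to an R5020 PR row ran from 63 bp at SRSF10P1 to 5170 bp at SEC14L6.

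GATA3, the luminal lineage factor, had 3 lost rows within 10 kb: chr10:8048957-8049218, chr10:8055816-8056511 and chr10:8058054-8058792. Their folds were 3.11, 3.70 and 3.45, and R5020 rows lay 282, 123 and 32 bp away with folds of 3.26, 2.56 and 3.42. The 8 retained rows at this gene had folds from 2.44 to 5.65, a range that holds all 3 lost rows. A single H3K27Ac row with a fold of 24.2 in vehicle and 27.9 in R5020 spanned the lost rows, and each of the 3 also had vehicle Maf1 and POLR3G in both treatments. The lost rows were 262, 696 and 739 bp wide, the last among the 5 widest of the set, and lay among retained rows of the same acetylated region.

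Protein-coding genes outside the arrays with 3 lost rows inside or within 10 kb were few. STARD13 had 3 lost and 7 retained rows, with lost folds of 4.41, 4.41 and 3.74. EPHA6, an ephrin receptor, had 3 lost and 7 retained rows. MCM3AP had 3 of each, but its lost rows lay over the neighbouring genes LSS, MCM3AP-AS1 and YBEY. CYKILR, a long noncoding RNA, differed from these protein-coding genes: its 3 rows were all lost (folds 1.87, 2.26 and 1.77). No R5020 PR row lay within 10 kb of CYKILR, and the nearest were at least 19032 bp from a lost row.

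Lists of genes by role were described by how many members had a lost row within 10 kb, against 429 of 19817 protein-coding genes (2.16%), or 22.4% for retained rows. Of 15 estrogen-responsive genes, 4 had one (PGR, CCND1, RARA and IGFBP4) and 10 had a retained row. Of 16 luminal and receptor genes, 3 had one (PGR, GATA3 and TRPS1) and 14 a retained row. Of 28 genes of the polymerase III machinery, 5 had one (POLR3A, POLR3D, MAF1, BDP1 and SNAPC5) and 8 a retained row, and of 12 heat shock genes HSPA1B had one and 8 a retained row. None of 18 progestin-responsive genes, 15 immediate early genes, 16 PR cofactor genes or 8 basal or mesenchymal genes had a lost row, while 8, 10, 12 and 1 of them had a retained row. The lists are short, and retained rows were also more frequent at 7 of these 8 lists than at all protein-coding genes.

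CCND1, which encodes cyclin D1, had a single vehicle PR row within 10 kb, 4340 bp from the gene, and it was lost (chr11:69636610-69636815, fold 4.15, 1056 bp from an R5020 row). After R5020 it had 9 PR rows with folds of up to 22.8. The row at the retinoic acid receptor gene RARA (chr17:40321200-40321558, fold 4.63) lay 186 bp from the highest R5020 row of that gene, with a fold of 42.2, beside 4 retained rows with folds of up to 49.1. At IGFBP4 the lost row (chr17:40443373-40443535, fold 2.86) overlapped the printed promoter, 268 bp from an R5020 row with a fold of 2.87. Its H3K27Ac row had folds of 20.2 in vehicle and 25.4 in R5020.

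Of the 6 lost rows within 10 kb of genes of the polymerase III machinery, 5 were acetylated, and none had a fold above 3.67. POLR3A had a single vehicle PR row, which fell in the printed promoter and was lost (chr10:78029485-78029745, fold 2.84), 3871 bp from an R5020 row. H3K27Ac at this row had folds of 8.99 in vehicle and 15.7 in R5020, and R5020 PR rows within 10 kb of the gene reached a fold of 36.5. At MAF1 2 rows were lost (folds 2.64 and 2.62), 101 and 605 bp from an R5020 row with a fold of 6.06, and 1 was retained (fold 2.93). At POLR3D the single vehicle row (fold 3.49) lay 97 bp from an R5020 row with a fold of 2.80. The rows near BDP1 (fold 3.49) and SNAPC5 (fold 3.67) lay 9733 and 7027 bp from the gene. The row near SNAPC5 lay at the promoter of another gene, RPL4, and the row near BDP1 had no other antibody. HSPA1B, an inducible HSP70 chaperone gene, had 1 lost row and 4 retained rows within 10 kb. That lost row (fold 4.13) lay 4501 bp from HSPA1B, at the promoter of SNHG32, and 47 bp from an R5020 row.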

How the data were processed

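PR and 7 other antibodies were profiled by ChIP-seq. The authors deposited 16 narrowPeak lists, 1 per antibody and treatment, each for 3 libraries; how replicates and inputs entered is not given in the sources used here. The submitters' processing notes name cutadapt, Bowtie2, MACS2 and the build hg38, without versions. The deposited values used were fold enrichment, a ratio to the caller's background, and the −log10 q-value. Lists hold no read counts, so depth is unknown. Columns of per-sample values: none.

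Rows of chromosomes 1 to 22 and X were joined by at least 1 shared base, and genes, promoters and hairpins came from RefSeq tables of GRCh38.p14 (58415 genes). Shares have 95% Wilson intervals and differences of shares 95% Newcombe intervals, called where they leave out 0; no p-value is given. The joins were tested on simulated data. Python 3.11.15, numpy 2.4.6, pandas 2.3.3, scipy 1.17.1 and matplotlib 3.10.9 were used.

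Named loci were the 10 lost rows of highest −log10 q (1 of them is not reported here), the 5 widest, up to 10 with POLR3A, Brf1, POLR3C or POLR3GL, the 5 highest without vehicle H3K27Ac, the 5 farthest from and the 5 closest to an R5020 row, the 5 retained rows sharing fewest bases, genes with 3 or more lost rows within 10 kb, and members of the fixed lists. Promoters to print were picked after their values were seen. The members and lists were chosen with earlier results of these data known. The repeat places and tRNA counts were added after seeing the data. Motifs were searched in promoter windows, since no genome sequence was used here; 28 lost rows of chromosome 8 had no window in the table used. Alternatives changed the rule for a shared row, thresholds, the summit and the rows included.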

Additional observations from a re-analysis of the deposited data

Results flagged for a closer look

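Outside chromosomes 1 to 22 and X, which the comparisons above do not use, the vehicle PR list held 69 rows, of which 43 shared no base with an R5020 PR row (62.3%, Wilson 95% interval 50.5% to 72.8%). It is given here because the share stands well above the 8.39% on the chromosomes used. On a scaffold assigned to chromosome 22 (KI270733v1) 15 of 23 rows were lost, and on an unplaced scaffold (GL000220v1) 18 of 21. On the remaining sequences 10 of 25 were lost (40.0%, 23.4% to 59.3%). The R5020 PR list held 464 rows on all of these sequences. Which copy of a repeated sequence such rows come from was not tested.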

How the results depend on the processing

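The share of vehicle PR rows called lost moved with every alternative tried. It was 8.39% by the rule, 5.09% when an R5020 row within 1 kb counted as retained, 11.7% when 50% of the row had to be covered, and 13.2% with R5020 rows of −log10 q of at least 5. It was 79.1% when the R5020 list was reduced to as many top rows as the vehicle list, 5.67% among vehicle rows of −log10 q of at least 5, and 2.86% among those of a fold of at least 5. Without repeat arrays and rows over 100 kb from a gene, an alternative chosen after seeing the data, it was 7.06%. Of the 10 rows of highest confidence, 4 stayed lost when rows within 1 kb counted as retained; the other changes to the R5020 list can only add lost rows.

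The 8 differences between lost and retained rows kept their direction in 48 of 48 alternatives and their side of 0 in 47. The exception was vehicle Maf1, −4.59 points with an interval from −8.68 to 0.33, among 283 lost and 2189 retained rows with −log10 q between 3.25 and 6.68; the cause was not tested. Vehicle POLR3A ranged from 1.50 points without arrays to 8.83, vehicle H3K27Ac from −43.2 to −22.2, R5020 Maf1 from −50.5 to −39.4, and kept H3K27Ac from −15.4 to −4.74. The GC box difference was 1.35 points where the PR summit lay in the promoter window. No paired analysis was possible because each list pools 3 replicates, for which reason no replicate could be left out either. The planned summit windows for motifs were not run, since no genome sequence was used here. Depth is unknown, and whether a row absent from the R5020 list lies just under the caller's threshold was not tested.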
